A study of Mus musculus with 8 samples.

Results

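Complement is a set of secreted and cell-surface proteins, and 9 mouse genes that encode its components or regulators (C3, C4b, C1s1, C1ra, Cfb, Cfd, Serping1, Cd55 and Cd59a) were followed in the transcriptome of bone marrow mesenchymal stem/progenitor cells (MSPCs). They were picked by symbol among the 52636 genes of the count table. The data comprise poly(A) RNA-seq of sorted MSPCs from 8 C57BL/6 mice labelled as 6 weeks old (the study's methods give its mice an older age), 4 of genotype Flk2-cre+ Cxcr4fl/+ (CTR) and 4 of genotype Flk2-cre+ Cxcr4fl/fl (cKO), with 1 library per mouse. All mice, controls included, carried the Flk2-cre transgene and at least 1 floxed Cxcr4 allele, as well as the GFP reporter for stem cell factor (SCF) that was used in the sort. The SCF reporter that the study lists is KitlGFP/+, an allele it also used to lower SCF. In its cKO mice that allele brought membrane-bound SCF and the number of hematopoietic stem cells down to control levels. Flk2 drives Cre in multipotent hematopoietic progenitors and their progeny, so Cxcr4, the receptor for CXCL12, was removed from blood cells and not from the MSPCs that were sequenced. The sort excluded blood cells (CD45, Ter119) and endothelial cells (CD31, CD144) and kept PDGFRα+ SCF-GFP+ cells.

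Complement can be started by antibody or surface recognition through C1q, after which the protease C1r activates C1s, and C1s cleaves C4 and C2 into a convertase that splits C3. In the alternative route, factor D cleaves factor B once it is bound to C3b, which gives a second convertase that amplifies the deposition of C3b. C1 inhibitor inactivates C1r and C1s in the fluid phase, whereas CD55 takes convertases apart on the cell surface and CD59 blocks the assembly of the membrane attack complex. The liver makes most circulating complement, and stromal and myeloid cells also make components locally.

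The libraries held between 31047344 and 38216877 counts. The summed level of 8 MSPC markers, Lepr and Cxcl12 among them, lay between 52666 and 65605 CPM, the counts of a gene scaled to a common library size with TMM (trimmed mean of M-values) factors. Ptprc, which encodes CD45, was at most 0.976 CPM, and both hepatocyte markers were listed at 0 in every library. Some blood transcripts were higher. The summed level of 4 neutrophil markers was 20.4 to 104.6 CPM, highest in cKO2 (104.6) and CTR1 (88.6), and that of 3 erythroid markers 45.004 to 185 CPM. The library of CTR3 stood apart, with 200.8 CPM in the 5 B and plasma cell markers against at most 4.48 CPM in the others. The counts of Cxcr4 itself were 4 to 19 in CTR libraries and 0 to 12 in cKO libraries (log2 difference -0.77 ± 1.19 SE, edgeR adjusted p = 0.998, without a filter on low counts), which checks no label, since the deletion was made in other cells. Sample titles carry a bracketed number whose meaning is not given by the labels. It lies between 26 and 32 for CTR2, CTR4, cKO2 and cKO4, and between 67 and 86 for CTR1, CTR3, cKO1 and cKO3, and these 4 and 4 libraries are called low-number and high-number libraries here.

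Promoters of C3, C1s1 and C1ra, which varied alike from library to library, and of Cd59a, which varied in the opposite direction, are printed from RefSeq on GRCm38.p6, each with 250 bases before and 50 after the start that RefSeq annotates, 5′ to 3′ on the gene's strand. RefSeq promoters were matched for 6 of the 9 members, the other two being Cfd and Cd55, so that C4b, Cfb and Serping1, which varied with C1s1 and C1ra as well, are not among those printed. Capitals mark matches, on either strand, to 5 motifs: TATAAA (the core promoter element), TTNNGNAA (C/EBP-type), TTCNNNGAA (STAT-type), TTCNNTTTC (interferon-response-type) and GGNNTTTCC (NF-kB-type). No 2 matches overlapped in these promoters.
C3 promoter, chr17:57228087-57228386, minus strand: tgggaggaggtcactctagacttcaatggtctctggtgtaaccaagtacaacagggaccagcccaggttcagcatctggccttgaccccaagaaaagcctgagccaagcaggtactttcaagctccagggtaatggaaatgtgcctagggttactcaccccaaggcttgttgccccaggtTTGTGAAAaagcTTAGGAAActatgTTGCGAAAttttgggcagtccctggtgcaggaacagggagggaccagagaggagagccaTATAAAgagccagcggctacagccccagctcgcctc
C1s1 promoter, chr6:124542310-124542609, minus strand: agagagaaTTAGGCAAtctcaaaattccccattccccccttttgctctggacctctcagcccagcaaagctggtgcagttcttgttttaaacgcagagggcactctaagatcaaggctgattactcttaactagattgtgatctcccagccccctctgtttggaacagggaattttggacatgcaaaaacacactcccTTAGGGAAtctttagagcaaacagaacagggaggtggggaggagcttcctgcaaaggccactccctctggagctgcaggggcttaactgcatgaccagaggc
C1ra promoter, chr6:124512371-124512670, plus strand: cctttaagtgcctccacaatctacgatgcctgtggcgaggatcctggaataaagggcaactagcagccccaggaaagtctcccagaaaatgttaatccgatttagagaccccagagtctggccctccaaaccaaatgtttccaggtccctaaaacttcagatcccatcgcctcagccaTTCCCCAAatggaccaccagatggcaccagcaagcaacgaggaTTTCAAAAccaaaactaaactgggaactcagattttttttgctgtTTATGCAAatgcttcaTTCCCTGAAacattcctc
Cd59a promoter, chr2:104095551-104095850, plus strand: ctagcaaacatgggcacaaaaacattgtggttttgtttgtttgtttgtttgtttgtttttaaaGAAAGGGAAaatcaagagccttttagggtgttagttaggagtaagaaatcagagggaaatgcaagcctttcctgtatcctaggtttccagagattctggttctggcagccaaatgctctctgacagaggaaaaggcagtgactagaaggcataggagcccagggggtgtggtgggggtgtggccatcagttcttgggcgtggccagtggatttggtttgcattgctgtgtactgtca
In C3, 3 C/EBP-type matches began 70, 58 and 45 bases before the start, and a TATAAA match began 14 bases after it. C1s1 held 2 C/EBP-type matches, 242 and 52 bases before the start. C1ra held 3, beginning 72 and 29 bases before and 16 bases after the start, with a STAT-type match that began 32 bases after it. In GENCODE M21, the source of the gene coordinates given here, C1ra begins upstream of that RefSeq start, at chr6:124512405. The matches in C1ra therefore lie inside the gene as GENCODE annotates it. The capitals in Cd59a are an interferon-response-type match on the opposite strand, beginning 187 bases before the start. Among 27025 promoters of the same length, 40.7% held a C/EBP-type match, 14.2% a TATAAA match, 8.47% a STAT-type, 8.57% an interferon-response-type and 5.72% an NF-kB-type match, against 3, 1, 1, 1 and 0 of the 6 member promoters. A match describes letters in this window and is not evidence of binding.

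Serping1, which encodes C1 inhibitor, was the most abundant member. Per length it reached 3465 ± 596 CPM per kilobase of exon (mean ± SD, n = 8 libraries), rank 7 of the 14598 genes detected throughout, and it made up 65.1% of all counts of the 9 members. C4b followed with 433 ± 51.0 CPM per kilobase (rank 66). C1ra (195 ± 40.5), Cfb (154 ± 35.0) and C1s1 (152 ± 47.0) formed the next group, and the order of Cfb and C1s1 was split, with Cfb higher in 4 of 8 libraries. C3, the central component, lay lower and more variable, at 65.5 ± 59.8 CPM per kilobase. Cd59a (3.81 ± 2.96), Cfd (2.23 ± 2.92) and Cd55 (2.07 ± 0.607) were lower again on average and did not differ from each other beyond their SDs. C3 exceeded Cd59a in 7 of 8 libraries, all but cKO1, and the intervals of mean ± SD of C3 and Cd59a overlapped. Serping1 and C4b were each higher than the next gene in 8 of 8 libraries by more than both SDs. The members together took between 0.876% and 1.55% of the counts of a library.

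**Figure D1:**
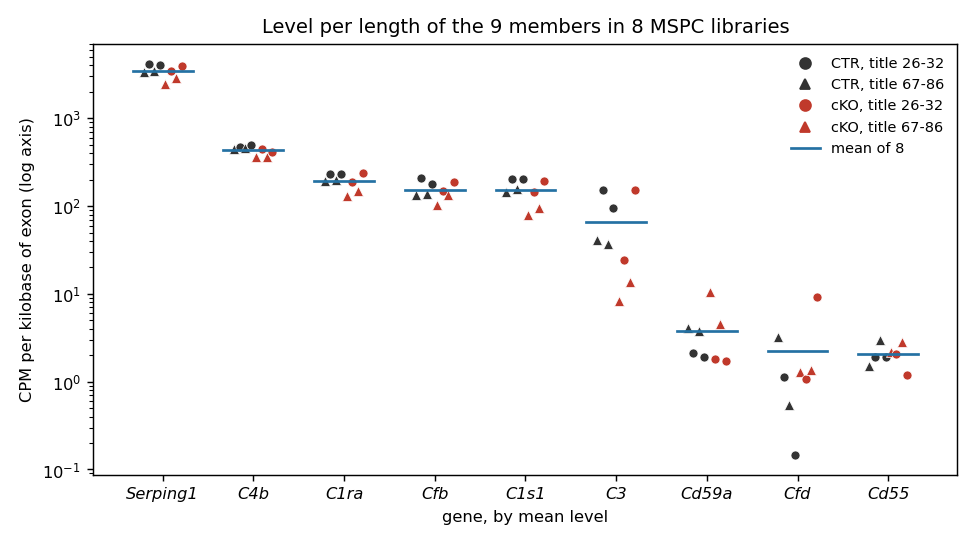
Level per length (CPM per kilobase of exon, log axis) of the 9 members in 8 MSPC libraries, ordered by the mean (blue line). Serping1 lies at 3465 on average, the members from C4b to C3 between 65.5 and 433, and Cd59a, Cfd and Cd55 between 2.07 and 3.81.

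C1ra and C1s1 encode the proteases of the C1 complex and lie on chromosome 6 in convergent orientation, 6901 bases apart. C1s1 (ENSMUSG00000038521.17, chr6:124530345-124542359 on GRCm38, minus strand) was at 452, 629.7, 496 and 639 CPM in CTR1 to CTR4, and at 246, 449.5, 297 and 597 CPM in cKO1 to cKO4. C1ra (ENSMUSG00000055172.10, chr6:124512405-124523443, plus strand) was at 571, 693, 591 and 696 CPM in CTR1 to CTR4, and at 386, 565, 439 and 714 CPM in cKO1 to cKO4. For both proteases cKO1 and cKO3 were the lowest of the 8 libraries, whereas cKO4 lay within or above the CTR values, so that the genotypes overlapped. C1s1 differed by -0.48 ± 0.25 (log2 cKO minus CTR ± SE, edgeR) and C1ra by -0.28 ± 0.18. The noncoding gene Gm16567, antisense within C1s1, had 20.03 to 21.4% as many counts as C1s1 in every library, and how the counting treated strand is not given in the sources used here. Reads of C1s1 and Gm16567 therefore cannot be told apart.

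C4b, the component cleaved by C1s, was the steadiest of the members. C4b (ENSMUSG00000073418.4, chr17:34728380-34743882, minus strand) was at 2515, 2704, 2623 and 2851 CPM in CTR1 to CTR4, and at 2042, 2566, 2067 and 2366 CPM in cKO1 to cKO4. The cKO libraries were lower except that cKO2 exceeded CTR1. Its difference was small but tight, at -0.24 ± 0.11 on the log2 scale (1.18-fold lower in cKO, unadjusted p = 0.0474 in edgeR's quasi-likelihood test). An exact permutation test (two-sided, on log2 CPM) gave p = 0.0571, where the smallest p that 4 against 4 libraries allow is 0.0286. Its neighbor C4a, a close paralog 65.2 kb away, had 94 to 207 counts against 66984 to 106359 of C4b, and the sources used here do not state how reads shared by near-identical genes were assigned.

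C3 varied more than nearly any other gene that averaged 10 CPM or more. C3 (ENSMUSG00000024164.15, chr17:57203970-57228136, minus strand) was at 213, 789, 192 and 485 CPM in CTR1 to CTR4, and at 42.7, 126, 70.3 and 780.0 CPM in cKO1 to cKO4. High values thus occurred in both genotypes, in CTR2, CTR4 and cKO4, and 3 of 4 cKO libraries lay below every CTR library. The highest library exceeded the lowest 18.5-fold, from 1400 to 29944 counts, and the SD of log2 CPM (1.56) was above that of 99.7% of the 9398 genes that averaged 10 CPM or more, whose median SD was 0.228. The genotype difference was -0.72 ± 0.84, and it was -2.39 without cKO4 (unadjusted p = 0.00224) and -0.22 without CTR2 in edgeR. With all libraries it was -1.42 in limma-voom, -1.16 in edgeR with the title number range as a term, and -1.49 with a replicate block (edgeR, unadjusted p = 0.0325, adjusted p = 0.884). At the other end, the SD of C4b (0.175) was above that of 28.8% of these genes.

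The alternative pathway genes Cfb and Cfd differed in level and in pattern. Cfb (ENSMUSG00000090231.10, chr17:34856374-34862518, minus strand), which encodes the protease subunit of the alternative convertase, was at 374, 590.5, 387 and 502 CPM in CTR1 to CTR4, and at 291, 419, 380.0 and 535 CPM in cKO1 to cKO4. The genotypes overlapped throughout, with a difference of -0.19 ± 0.20. Cfb lies 85 bases from C2, the homologous subunit of the classical convertase, and 112 kb from C4b, and it overlaps the read-through gene Gm20547, which had 0 to 187 counts. Cfd (ENSMUSG00000061780.6, chr10:79890853-79892655, plus strand), which encodes factor D and is abundant in adipocytes, had only 92, 34, 16 and 5 counts in CTR1 to CTR4, and 39, 35, 41 and 322 counts in cKO1 to cKO4. The difference of Cfd rested on single libraries, at 1.35 ± 0.95 with all libraries, -0.0086 without cKO4 and 2.41 without CTR1. The library of cKO4 also held the highest C3 of its genotype.

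Among the regulators, Serping1 followed the proteases that its product inactivates. Serping1 (ENSMUSG00000023224.12, chr2:84765387-84775444, minus strand) was at 7831, 9763, 7937 and 9315 CPM in CTR1 to CTR4, and at 5698, 8109, 6615 and 9176 CPM in cKO1 to cKO4, with cKO1 and cKO3 again lowest (log2 difference -0.24 ± 0.16). Cd55 (ENSMUSG00000026399.12, chr1:130439027-130462744, minus strand), which lies 1.85 Mb from Cxcr4, was at 7.36, 9.15, 14.5 and 9.19 CPM in CTR1 to CTR4, and at 10.6, 10.03, 13.8 and 5.78 CPM in cKO1 to cKO4. Its genotype means were 10.04 and 10.05 CPM, a log2 difference of 0.00 ± 0.31 whose sign depended on the test and on the libraries included. Cd59a (ENSMUSG00000032679.12, chr2:104095801-104115354, plus strand) was at 7.39, 3.81, 6.91 and 3.43 CPM in CTR1 to CTR4, and at 19.1, 3.25, 8.18 and 3.07 CPM in cKO1 to cKO4. Here cKO1 was the highest library, and the difference of 0.64 ± 0.58 became -0.16 without it. Cd55 and Cd59a, the surface regulators among the members, were thus far less abundant than the secreted inhibitor, and neither followed its pattern.

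**Figure D2:**
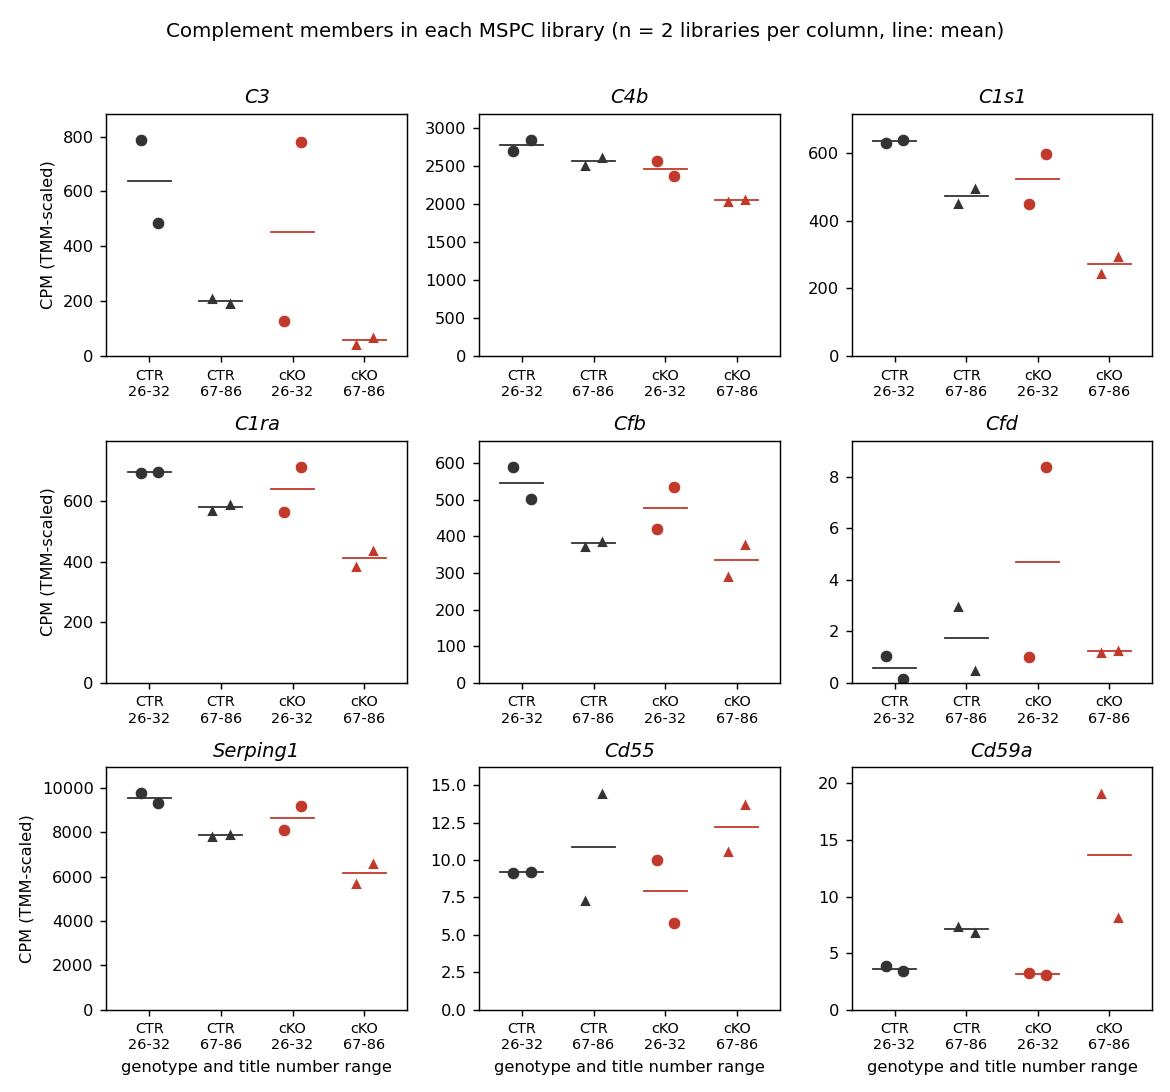
CPM (TMM-scaled, linear axes from 0) of each member in the 8 libraries, in columns by genotype and title number range, with 2 libraries per column and a line at their mean. C3, C4b, C1s1, C1ra and Serping1 are lowest in cKO1 and cKO3 (red triangles), and Cd59a is higher in all high-number libraries (triangles, at least 6.91 CPM) than in the low-number ones (at most 3.81 CPM).

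The genotype comparison asks whether MSPCs express complement differently when the blood progenitors around them lack CXCR4. None of the 9 members passed the threshold (edgeR's quasi-likelihood test, Benjamini-Hochberg adjusted p = 0.9999 for each), and 0% of the 14598 genes tested did. At an unadjusted p under 0.05, edgeR counted 638 genes (4.37%) and 1 member, C4b. At an adjusted p under 0.05, DESeq2 called 23 genes (0.158%) with the Wald test and 22 (0.151%) with the likelihood ratio test, no member among them. C3, C4b, C1s1, C1ra, Cfb and Serping1 were lower on average in cKO and Cfd, Cd55 and Cd59a were not, a share of 6 in 9 against 51.1% of all genes tested. The median log2 difference of the members was -0.24, and that of all genes tested -0.0055. No member separated the genotypes without overlap, as 2.67% of the genes tested did.

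Taken within each title number range, the same 6 genes were lower in cKO in both ranges, whereas 27.9% of the genes tested were. The log2 difference was -0.98 among low-number and -1.88 among high-number libraries for C3, -0.29 and -0.81 for C1s1, -0.13 and -0.50 for C1ra, -0.14 and -0.36 for Serping1, -0.17 and -0.32 for C4b, and -0.20 and -0.19 for Cfb, each from 2 against 2 libraries. With the range as a term in the edgeR fit, the SEs shrank and 4 members had an unadjusted p under 0.05, against 2.71% of the genes tested that did so with a lower value in cKO. These were C1s1 (-0.54 ± 0.14, unadjusted p = 0.00408, edgeR), C4b (-0.25 ± 0.08, 0.0126), C1ra (-0.31 ± 0.11, 0.0241) and Serping1 (-0.25 ± 0.10, 0.0317). None passed the adjustment over all genes, where their adjusted p in edgeR lay at 0.864 or above. The genotype effect was not found to differ between the ranges for any member (interaction in edgeR, unadjusted p between 0.0566 and 0.963), and 0 genes passed that test over all genes, with 500 at an unadjusted p under 0.05 (3.43%). In simulated data of the genotype comparison, 47.0% of the genes given a log2 change of 1 were recovered by edgeR, and 85.5% of those given a change of 2. The simulated counts had no difference between the ranges, and their spread came from a fit with the range as a term. Recovery in the measured libraries with genotype alone may therefore be lower. In the fit with genotype alone, every member but Cfd differed by less than 1 on the log2 scale.

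Differences between the title number ranges exceeded those between genotypes in size for all members other than C4b and Cfd. In the edgeR fit with genotype as a term, C3 was 5.02-fold lower in the high-number libraries (log2 -2.33 ± 0.54, adjusted p = 0.206). C1s1 was lower by -0.68 ± 0.14 (adjusted p = 0.162), Cfb by -0.51 ± 0.12 (0.201), C1ra by -0.44 ± 0.11 (0.221), Serping1 by -0.38 ± 0.10 (0.225) and C4b by -0.19 ± 0.08 (0.414). Cd59a was 2.92-fold higher (1.55 ± 0.36, adjusted p = 0.206), Cd55 stood at 0.44 ± 0.29 and Cfd at -0.24 ± 1.14. Thus 0 members passed the threshold in edgeR, as 0.0137% of the genes tested did, while 7 of 9 had an unadjusted p under 0.05, against 11.6% of the genes tested. DESeq2's Wald test called 6 members, C3 (adjusted p = 0.0175), C1s1 (0.00169), C1ra (0.0308), Cfb (0.0128) and Serping1 (0.0202) as lower and Cd59a (0.00128) as higher, among 2.6% of the genes tested. The call therefore depended on the test, with similar fold changes in both.

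Without any overlap between the ranges were Cfb, with 419 to 590.5 CPM in the low-number and 291 to 387 CPM in the high-number libraries, Serping1, with 8109 to 9763 against 5698 to 7937 CPM, and Cd59a, with 3.07 to 3.81 against 6.91 to 19.1 CPM, whereas 6.86% of the genes tested had none. Each gave p = 0.0286 in the same exact permutation test, the smallest that 4 against 4 libraries allow. C3, C4b, C1s1, C1ra, Cfb and Serping1 were lower in the high-number libraries of both genotypes, as were 31.4% of the genes tested. C3, C4b, C1s1, C1ra and Serping1 had cKO1 and cKO3 as their lowest libraries, a pattern found in 5.29% of the genes tested. Other transcripts moved with the ranges too. The summed level of 2 osteoblast markers was 10768 to 13673 CPM in the low-number and 7735 to 10335 CPM in the high-number libraries, that of 3 erythroid markers 45.004 to 106 against 100.1 to 185 CPM, and that of the MSPC markers 52666 to 58910 against 58640 to 65605 CPM. The osteoblast sum was almost all Ibsp, with Bglap at 0.537 to 3.95 CPM. Most of the MSPC sum was Cxcl12 (39507 to 50535 CPM). Cxcl12 and Adipoq were higher on average in the high-number libraries. The other markers, Lepr, Pdgfra, Kitl, Ebf3, Foxc1 and Vcam1, were lower there on average, so the sum does not stand for the list. For Ebf3, unscaled counts were 7001 to 9851 in the low-number and 4833 to 7540 in the high-number libraries. Total counts differed as well, at 32188963 to 38216877 in the low-number and 31047344 to 33070784 in the high-number libraries. The part of these transcripts in the differences of the complement genes was not tested. In bulk RNA, fewer cells that express a gene and less RNA per cell cannot be told apart.

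**Figure D3:**
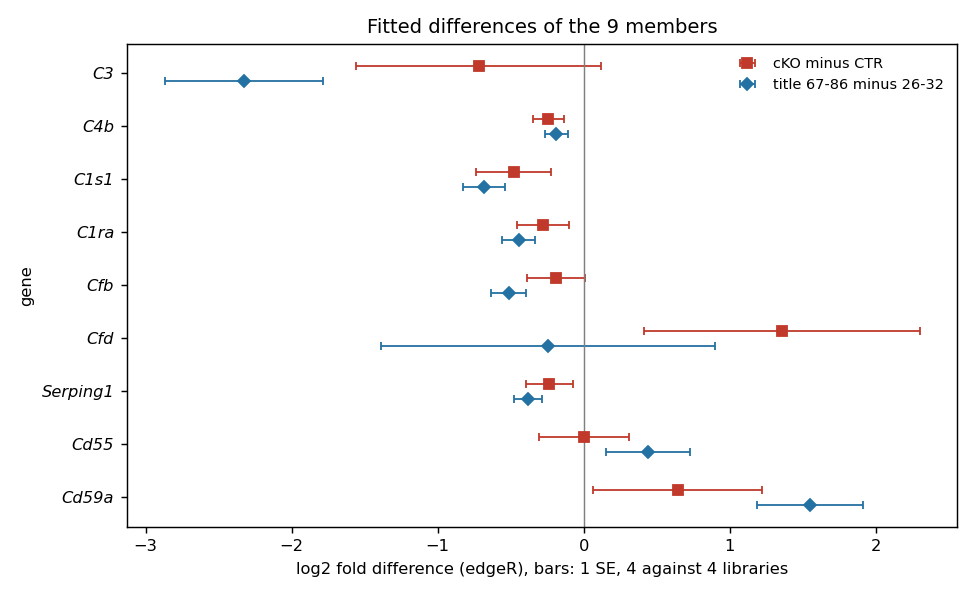
Fitted log2 differences of the 9 members between genotypes (red squares, cKO minus CTR) and between title number ranges (blue diamonds, high minus low), with bars of 1 SE from 4 against 4 libraries. For C3 the range difference is -2.33 and the genotype difference -0.72, and Cd59a lies on the other side of 0 at 1.55 and 0.64.

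The abundant members varied together from library to library. Over the 15 pairs of C3, C4b, C1s1, C1ra, Cfb and Serping1, Pearson's r of log2 CPM lay between 0.65 and 0.99 (median 0.93, n = 8 libraries), and 13 pairs passed a two-sided exact permutation test with adjustment over the 36 pairs of members. C1s1 and C1ra were closest (r = 0.995, adjusted exact permutation p = 0.0029, Spearman's rho = 0.929, adjusted p = 0.0329). The relation of C1s1 with Serping1 was similar (r = 0.987, adjusted exact permutation p = 0.0029, rho = 0.905, adjusted p = 0.0329), and so was that of C3 with C1ra (r = 0.963, adjusted exact permutation p = 0.0029, rho = 0.905, adjusted p = 0.0329). The spans differed, however, with 2.60-fold between the highest and the lowest library for C1s1, 1.85-fold for C1ra, 1.71-fold for Serping1 and 18.5-fold for C3. Cd59a ran opposite to Serping1 (r = -0.909, adjusted exact permutation p = 0.00787, rho = -0.786, adjusted p = 0.0718). In all, 18 of the 36 pairs passed by Pearson's r and 6 by Spearman's rho.

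The title number ranges enter these values, since Cfb, Serping1 and Cd59a did not overlap between them. After each gene was centered within the ranges, r was 0.99 for C1s1 with C1ra, 0.978 for C1s1 with Serping1 and 0.924 for C3 with C1ra, and it spanned 0.385 to 0.99 over the 15 pairs. It was -0.751 for Cd59a with Serping1, with opposite signs in the low-number (0.578) and high-number (-0.912) libraries. No pair passed the exact permutation test within ranges, whose 576 pairings gave no adjusted p below 0.0804. Leaving out the 2 libraries farthest from the median of the first gene, r was 0.971 for C1s1 with C1ra, 0.949 for C1s1 with Serping1, 0.954 for C3 with C1ra, and -0.812 for Serping1 with Cd59a. The pairs of C4b fell most, to between 0.154 (with C1ra) and 0.483 (with C3), and rest on the libraries left out. All values of a library share its RNA, depth and scaling. For Cfd, r with the other members lay between -0.611 and 0.106 and no pair passed. Its relation to C4b was -0.435 over all libraries, -0.498 after centering and -0.937 without the 2 farthest libraries, and that to Cd55 was -0.611, -0.739 and -0.768.

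**Figure D4:**
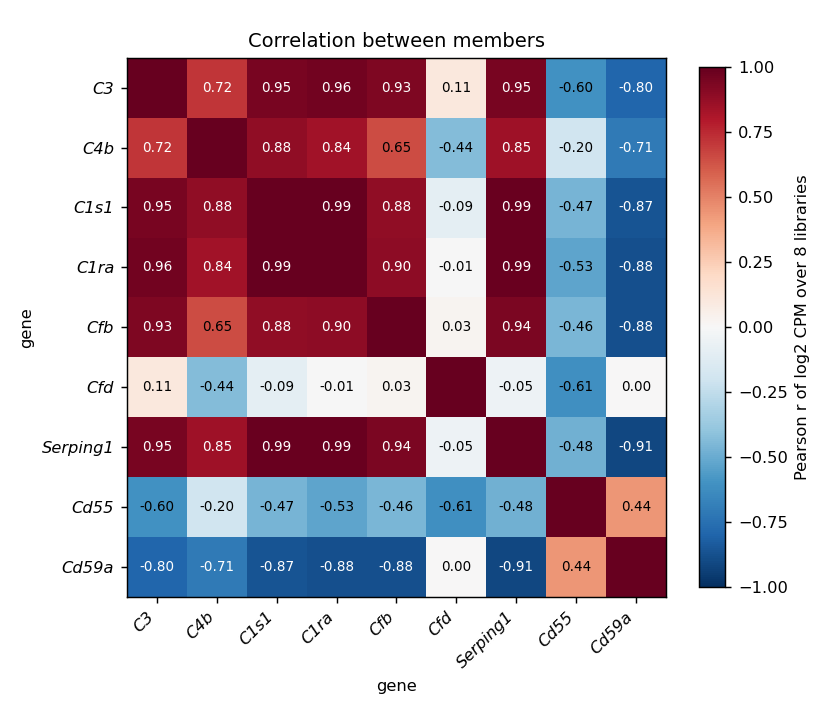
Pearson's r of log2 CPM over 8 libraries for each pair of members (color scale from -1 to 1). C3, C4b, C1s1, C1ra, Cfb and Serping1 form a block of positive values between 0.65 and 0.99, to which Cd59a is negatively related (-0.71 to -0.91).

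Several complement genes are known targets of interferon, and the members were set against the mean log2 CPM of 20 interferon-stimulated genes, such as Ifit1 and Isg15. An interferon signature was taken as the reference level because earlier results of these data gave it as differing between the genotypes. The mean of the 20 genes was 5.14, 4.88, 5.09 and 4.71 in CTR1 to CTR4, and 5.77, 5.21, 5.49 and 5.32 in cKO1 to cKO4, higher in every cKO library than in any CTR library. This genotype difference was known when the reference was chosen and is not a new result. The interferon mean also averaged 5.37 in the high-number and 5.03 in the low-number libraries. The permutation tests below treat all libraries as exchangeable, so their p also reflects differences that genotypes or ranges share. Values after centering remove the ranges or the genotypes, not both, and carry no p. C4b was lower where the interferon-stimulated genes were higher (r = -0.955, adjusted exact permutation p = 0.00067 over 9 relations, rho = -0.976, adjusted p = 0.00357, n = 8). The relation was -0.936 after centering within the title number ranges, -0.894 after centering within genotypes, and -0.924 without the 2 libraries farthest from the median of the interferon mean. C1s1 (r = -0.878, adjusted exact permutation p = 0.0164, rho = -0.857, adjusted p = 0.0482) ran in the same direction, with r of -0.834 within ranges, -0.84 within genotypes and -0.724 without the 2 farthest libraries. For Serping1 (r = -0.861, adjusted exact permutation p = 0.0175, rho = -0.762, adjusted p = 0.11) and C1ra (r = -0.832, adjusted exact permutation p = 0.0241, rho = -0.643, adjusted p = 0.172) only Pearson's r passed. Within ranges these were -0.828 and -0.758, within genotypes -0.866 and -0.806, and without the 2 farthest libraries -0.698 and -0.626. C3 (r = -0.751, adjusted exact permutation p = 0.0551, rho = -0.69) did not pass, and cKO4 was high in C3 at an intermediate interferon mean. Nor did Cfb pass (r = -0.723, adjusted exact permutation p = 0.0616). The other members had a positive r and did not pass in the same test. These were Cd59a (r = 0.710, adjusted p = 0.0616), Cfd (0.475, 0.251) and Cd55 (0.156, 0.714).

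**Figure D5:**
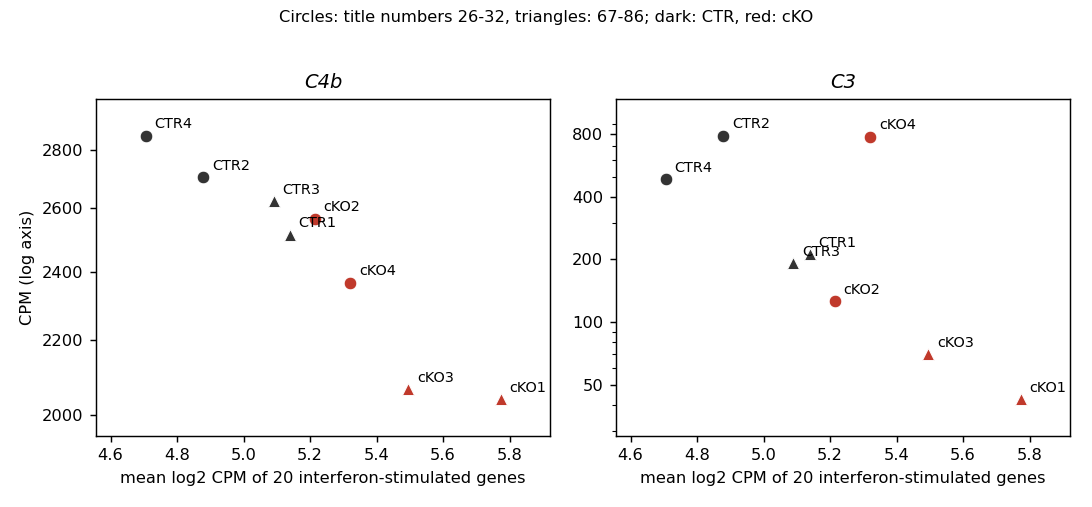
CPM of C4b and C3 (log axes) against the mean log2 CPM of 20 interferon-stimulated genes in each library, with circles for title numbers 26 to 32, triangles for 67 to 86, dark symbols for CTR and red ones for cKO. C4b decreases along the axis from 2851 CPM in CTR4 to 2042 CPM in cKO1, while C3 is high in CTR2 (789 CPM), CTR4 (485 CPM) and cKO4 (780.0 CPM) and low in cKO1 and cKO3.

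Among genes that averaged 10 CPM or more, those whose log2 CPM was most like a member's were found by Pearson's r over the 8 libraries, given as a description without a test. For C1s1, C1ra and Serping1 the closest was Gm16567 (r = 0.998, 0.997 and 0.991), the gene that overlaps C1s1. Next came Irf8 for C1s1 and C1ra (0.989 and 0.991) and Vipr2 for Serping1 (0.98). C3 was most like Pdlim4 (0.961) and Irf8 (0.959), C4b like Btaf1 (0.988) and Lama4 (0.972), and Cfb like Sptlc1 (0.984) and Abcc4 (0.962). Cd59a was closest to Fgfrl1 (0.963) and Ppp1r14b (0.963), Cd55 to Fcer1g (0.946) and 1810049J17Rik (0.945), and Cfd to Mettl14 (0.956) and Rpl5 (0.955). With 9391 genes searched over 8 libraries, values of this size are the top of many.

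Of 49 other genes of the complement system, 25 had counts in every library and were tested, 16 were listed at 0 in every library and 8 in some (at most 122 counts). Those listed at 0 throughout included the terminal components Hc, C7, C8a, C8b and C9, the lectin pathway protease Masp1, factor I (Cfi), C4bp and the receptor C3ar1. Abundant per length were Clu, an inhibitor of the terminal complex, at 566 ± 39.9 CPM per kilobase, C2 at 187 ± 50.2 and C6 at 70.6 ± 21.5, followed by C1qbp (12.02 ± 1.54) and the lectin Mbl1 (10.7 ± 1.43). Clu was steady, with a log2 difference of -0.08 ± 0.10 between genotypes. None of the 25 passed the threshold between genotypes in edgeR, where 1 gene was lower and 2 were higher at an unadjusted p under 0.05, and their median log2 difference was 0.02 against -0.24 for the 9 members. C2 and C6 followed the members between the title number ranges, at -0.67 ± 0.15 (edgeR adjusted p = 0.198) and -0.51 ± 0.22 (0.415). Clu (0.02 ± 0.09), C1qbp (-0.13 ± 0.14) and Mbl1 (-0.16 ± 0.15) differed less between the ranges. Between genotypes, C2 was at -0.01 ± 0.26 and C6 at -0.51 ± 0.26. Between the ranges 0 of the 25 passed in edgeR, with 5 lower and 5 higher at an unadjusted p under 0.05, while DESeq2's Wald test called C2, Csmd1 and C1qb.

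The recognition subunits of C1 were scarce beside its proteases. C1qa, C1qb and C1qc had 42 to 306 counts, and C1qb was at 4.34, 1.59, 4.09 and 1.13 CPM in CTR1 to CTR4, and at 9.33, 4.27, 8.30 and 3.88 CPM in cKO1 to cKO4. It was higher in cKO in both ranges (log2 1.56 and 1.05), and higher in high-number libraries in both genotypes, opposite to C1s1 and C1ra. With the range as a term in edgeR, the genotype difference was 1.32 ± 0.28 for C1qb (adjusted p = 0.746), 0.75 ± 0.39 for C1qa (0.959) and 0.09 ± 0.34 for C1qc (0.999), so that the subunits did not share 1 size of difference. Of these, C1qb alone passed in DESeq2's likelihood ratio test (adjusted p = 0.00099), which called 0.322% of the genes tested. C1q is made by macrophages, and the summed level of 5 macrophage markers was 11.4 to 23.5 CPM in CTR and 12.9 to 23.3 CPM in cKO. These markers did not share a direction. In unscaled counts, Csf1r (179 to 295 in CTR, 302 to 370 in cKO) and Adgre1 (0 to 82, 22 to 80) were higher on average in cKO. Mrc1 (39 to 242, 0 to 191) and Cd163 (32 to 116, 14 to 47) were lower on average, and Cd68 (23 to 101, 47 to 73) was similar. The part of such cells in C1qb was not tested. The paralogs C1rb, C1s2, C4a and Cd59b were low, with at most 254 counts in a library, and Cd55b was listed at 0. Among the anaphylatoxin receptors, C5ar1 had 164 to 621 counts, and C5ar2 had 820 counts in CTR3, the library with plasma cell transcripts, against 9 to 35 in the other libraries. Its genotype difference was -3.38 ± 1.39 in all libraries and 0.10 among the low-number libraries, which do not include CTR3.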

How the data were processed

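MSPC libraries of 8 mice, 4 CTR and 4 cKO, were analysed. According to the methods and the submitters' processing notes, the authors trimmed reads, aligned them with HISAT2 to GRCm38 (mm10) and counted them per gene with HTSeq, and they deposited raw counts without normalization. In the deposited counts each of the 8 odd numbers from 5 to 19 was more frequent than both of its even neighbors, so the counting tool is uncertain and a gene listed at 0 may not be a gene without reads. Of 52636 genes, 52489 were matched to GENCODE M21, the source of coordinates and exon lengths. The 14598 genes whose count exceeded 0 in all libraries, the 9 members among them, were scaled by TMM and tested with edgeR 4.0.16 (glmQLFit and glmQLFTest, threshold 0.05 after Benjamini-Hochberg adjustment over all genes tested) in R 4.3.3. SEs are those implied by the F statistic. Log2 CPM used a prior count of 2. Exact permutation tests enumerated 70 assignments or 40320 pairings of 8 libraries. The title number range entered as a term in separate fits. Same-numbered CTR and cKO libraries were not paired by the labels, and their deviations correlated at over 0.1 in 2 of 4 pairs, so they were treated as unpaired.

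Alternatives were other scalings and filters, DESeq2 1.42.0, limma-voom (limma 3.58.1), a replicate block and each library left out. Members, lists and tests were chosen with earlier results of these data known. Genes named beyond the members are the 6 of the pathway list with the highest level per length (1 of which is not reported here), paralogs of members, anaphylatoxin receptors, C1q subunits, the 2 genes most like each member, and Cxcr4. Csmd1, Hc, C7, C8a, C8b, C9, Masp1, Cfi and C4bp were named after their values were seen. The range of 31047344 to 38216877 counts per library limits precision, most for genes of few counts.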

Additional observations from a re-analysis of the deposited data

Results flagged for a closer look

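Among the 18 groups of 4 libraries formed by the 9 members and the genotypes, 1 held a library far from the others. Cfd, the factor D gene, was at 8.39 CPM (322 counts) in cKO4 and at 0.989 to 1.26 CPM in the other cKO libraries, a gap to the nearest library of 0.891 of the whole range, above Dixon's critical value at 95% for a group of this size. Chance sets apart about 1 in 20 such groups, or 0.9 of 18.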

How the results depend on the processing

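No member passed the threshold between genotypes in any of the fits run. Genes called between genotypes numbered 0 in edgeR, 1 without a filter, with filterByExpr or with a mean of at least 1 CPM, 23 with DESeq2's Wald test, 22 with its likelihood ratio test and 47 with that test and the title number range as a term, which also called 1 other pathway gene, C1qb. Leaving out each library in turn, the genotype difference (log2) ranged from -2.39 to -0.22 for C3, -0.31 to -0.20 for C4b, -0.74 to -0.31 for C1s1, -0.45 to -0.16 for C1ra, -0.34 to -0.05 for Cfb, -0.35 to -0.13 for Serping1, -0.0086 to 2.41 for Cfd (reversed without cKO4), -0.18 to 0.23 for Cd55 and -0.16 to 0.92 for Cd59a (reversed without cKO1). The difference of Cd59a, 0.64, was 0.28 with limma-voom, 0.38 with the range as a term and 0.31 with the replicate block. Cd55 also reversed with limma-voom (-0.042), with the range as a term (-0.027 in edgeR, -0.023 in DESeq2) and with the replicate block (-0.018).

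The replicate block called 0 genes between genotypes (805 at an unadjusted p under 0.05, against 638 without it) and no member, and 7 of 8 libraries correlated best with the library of their own number, a hint from the data and not from the design.

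Between the title number ranges, edgeR called 2 genes, 0 without genotype as a term, and 0 to 4 with each library left out, limma-voom called 1 and DESeq2's Wald test 380, with 3 other pathway genes. These counts over all genes and over the pathway were added after seeing the data. DESeq2's Wald test passed C3 (-2.33), C1s1 (-0.68), C1ra (-0.44), Cfb (-0.51), Serping1 (-0.38) and Cd59a (1.55). Leaving out each library, Cfd ranged from -1.29 to 1.03, reversed without cKO1 (0.37), cKO3 (0.35) or cKO4 (1.03). Pairs of members correlated numbered 18, and 0 after centering within ranges, where fewer pairings are possible. With the longest transcript as length, Serping1 was at 4556 and Cd55 at 3.21 CPM per kilobase. The cause of these changes was not tested.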
